A study of Mus musculus with 18 samples.

Results

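Embryoid bodies held in thalidomide were compared at 72 h and at 48 h of exposure. All arrays that the labels place in these 2 groups were used, 3 at 72 h and 3 at 48 h, which is 6 of the 18 arrays of the series. The exposed 72 h group and the exposed 48 h group held C57BL/6 mouse embryonic stem cells grown without feeder cells on gelatin. Differentiation as embryoid bodies had begun before the drug was added, and 0.25 mM thalidomide was present from day 3 of the embryoid body stage. The 6 control arrays of 72 h and 48 h, 3 at each time, came from the same cells under the same conditions of culture. The treatment protocol gives 0.25% DMSO as their vehicle, the series design calls them unexposed, and their source names count hours after embryoid body formation. The 3 exposed arrays of 24 h are used below for levels only. The labels call the replicates biological and do not say whether they were separate cultures, so p-values measure the spread between these arrays. A tag for re-analysis, which the labels do not explain, stands in the titles of all controls and of the exposed 24 h arrays, and in none of the titles of the exposed 48 h and 72 h arrays. The exposed step from 48 h to 72 h is thus free of a difference in the tag. Exposed and control arrays of 48 h and 72 h differ in the tag as well as in treatment, and for levels these cannot be told apart. Likewise the exposed arrays of 24 h differ from those of 48 h and 72 h in the tag as well as in time. Each step compares arrays that are alike in the tag. The labels do not say whether the hours of control and exposed groups count from the same start, so in a difference between the steps the treatment and a shift in time cannot be told apart.

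Embryoid bodies are aggregates of stem cells kept in suspension, whose cells lose pluripotency, pass through states like those of the epiblast and the primitive streak, and form early derivatives of mesoderm, endoderm and ectoderm. Heart muscle, endothelium and neural progenitors are among the cells that appear in such cultures within days. The drug binds the protein cereblon, which selects substrates for a ubiquitin ligase, and directs proteins such as the transcription factor Sall4 to degradation. It is a teratogen in humans, whereas mice are largely resistant to its limb effects, and RNA signals do not show protein loss. Of the defining pluripotency genes, Pou5f1 had log2 signals of 6.54 ± 0.14 at 24 h and 6.29 ± 0.16 at 48 h of exposure, and Sall4 had 10.12 ± 0.11 at 24 h and 9.88 ± 0.02 at 48 h (SD, n = 3). Between 24 h and 48 h of exposure a change in time and the tag cannot be told apart. The cell type label names the stem cells from which the embryoid bodies were made.

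The cluster of miR-302 and miR-367, a polycistronic microRNA locus of primed pluripotent and early germ layer cells, held some of the largest falls of the step. Its 5 hairpins lie on the plus strand at chr3:127545228-127545807 in RefSeq's mouse assembly GRCm38.p6, a span of 580 bases. The mature 3p strands that RefSeq lists are printed here because they show which members share the bases that pair with targets and which do not. Capitals mark the seed, bases 2 to 8 from the 5′ end.
mmu-miR-302b-3p: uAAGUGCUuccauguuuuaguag
mmu-miR-302c-3p: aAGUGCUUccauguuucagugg
mmu-miR-302d-3p: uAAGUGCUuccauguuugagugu
mmu-miR-367-3p: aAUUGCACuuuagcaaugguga
The seeds of miR-302b-3p and miR-302d-3p are the same letters (AAGUGCU). The listed miR-302c-3p starts 1 base further along (AGUGCUU), and miR-367-3p has a different seed (AUUGCAC). Mir302a, the remaining member, is described by its values. In GRCm38.p6 the 4 mature strands lie at chr3:127545275-127545297, chr3:127545406-127545427, chr3:127545665-127545687 and chr3:127545779-127545800, in the order printed. The probe sets carry the names of the microRNA genes, and no source used here says whether they read the precursor or the mature RNA.

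Mir302b had log2 signals of 3.20, 3.75 and 3.98 in the exposed 72 h arrays, against 5.62, 6.25 and 5.62 in the exposed 48 h arrays. All 72 h arrays lay below all 48 h arrays. Its log2 change was -2.19 ± 0.29 (SE; limma adjusted p = 0.000239). Mir302a, Mir302c, Mir302d and Mir367 fell with it, by 2.01, 1.84, 1.80 and 1.45 on the log2 scale, and the 2 times did not overlap for any of the 5. The highest of the 3 exposed 72 h signals was that of the third array for all 5 genes. In control arrays Mir302b had a log2 change of -2.48 (adjusted p = 6.38e-05) and Mir367 one of -0.75 (adjusted p = 0.147), and the difference between the steps did not pass the test for any of the 5. Of 483 microRNA genes measured, 23 were lower (4.76%) and 7 higher (1.45%), against 3.76% lower and 6.42% higher of all 22180 genes. The share of microRNA genes that fell was near that of all genes.

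Between 48 h and 72 h of exposure 2260 of 22180 genes changed at a limma adjusted p under 0.05, 1425 higher (6.42%) and 835 lower (3.76%). At least 2-fold changes were seen for 78 genes that rose and 22 that fell. The median log2 change over all genes was -0.02. The count was 1275 without the first 72 h array, 1479 without the second, 1336 without the second 48 h array and 1397 without the third, and it was 828 with only the 6 exposed arrays in the fit. Among all 22180 genes, called or not, the exposed arrays of the 2 times did not overlap in 29.2%, so such a gap alone is common. List counts also shrank when an array was left out or when only the exposed arrays were fitted, and these counts stand beside the lists below. With genes in 4 equal bins by mean signal, 17.0% were called in the brightest bin and 2.89% in the dimmest.

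Between the control arrays labelled 72 h and 48 h, 1448 genes changed, 804 higher (3.62%) and 644 lower (2.9%), 128 of them at least 2-fold. The exposed and the control step share no array, though the spread was estimated over all 6 groups together. Both steps called 642 genes in the same direction, which is 28.4% of the exposed calls and 44.3% of the control calls. The sole gene called in opposite directions was Slc5a2, a sodium-glucose cotransporter gene, named after its values were seen, with a log2 change of 0.31 in exposed and -0.32 in control arrays. Genes that rose in control had a median log2 change of 0.31 in the exposed step and 0.48 in the control step, and 93.9% of them had a positive exposed change. Genes that fell in control had medians of -0.22 in the exposed step and -0.42 in the control step, and 83.9% had a negative exposed change. The control medians belong to genes chosen by that step and are given as a description. A direct test of the difference, exposed step minus control step, called 21 genes, 14 higher (0.0631%) and 7 lower (0.0316%), against 3110 at an unadjusted p under 0.05. That count ran from 2 to 31 over the fits that left out 1 array. With cyclic loess scaling on top, 32 genes were called, and 46.9% of them were higher, against 66.7% of the 21.

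**Figure D1:**
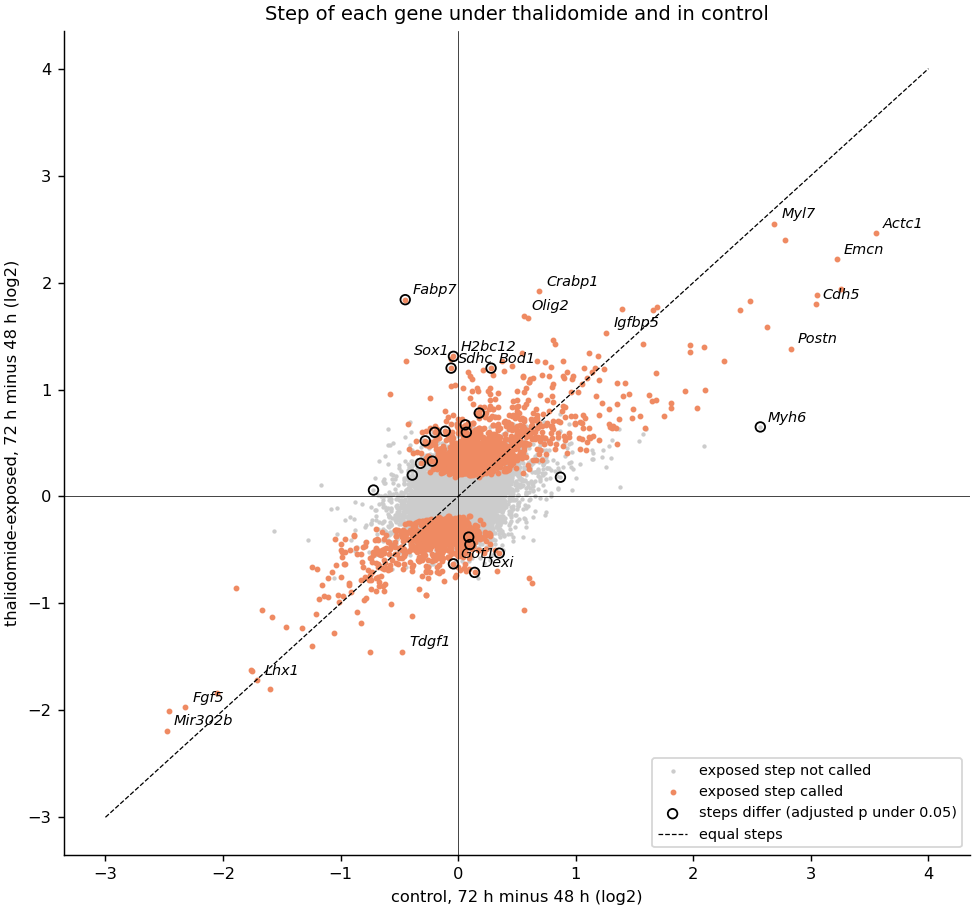
Log2 change of each gene from 48 h to 72 h in thalidomide-exposed arrays (vertical axis) and in control arrays (horizontal axis). Orange points are the 2260 genes called in the exposed step, circles the 21 genes whose steps differed, and the dashed line marks equal steps. Heart and endothelial genes such as Actc1, Emcn and Cdh5 lie at upper right below the line, Fabp7 at upper left, and Sdhc and H2bc12 on the vertical axis.

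The third exposed array of 72 h stood apart from the other two in the tissue lists. Its mean log2 signal over the cardiac sarcomere list was 6.02, against 6.62 and 6.58 in the first and second, and 5.75, 5.71 and 5.68 in the exposed 48 h arrays. Over the endothelial list it had 6.04, against 6.72 and 6.51, and over the neural list it was highest, with 6.91 against 6.48 and 6.46. All the same, on each of these lists it lay on the same side of the 48 h arrays as the other two. On some other lists it did not. Over cardiac transcription factors it had 6.70, against 7.06 and 7.09, and 7.06, 6.91 and 6.92 at 48 h. Over calcium handling and ion channels it had 6.00, against 6.13 and 6.13, and 6.05, 6.06 and 6.08 at 48 h. Over pluripotency genes it had 6.31, against 6.06 and 6.10, and 6.25, 6.31 and 6.25 at 48 h. The third control array of 72 h was low in the neural list (5.84, against 6.19 and 6.25). Counts without the third exposed array of 72 h are given beside the sarcomere, endothelial and neural lists and some others, but not all. They were added after these values were seen. Without this array 4 cardiac transcription factors were higher and 2 lower, and 9 genes of the streak list were lower. Without it 5.61% of all genes rose and 2.98% fell.

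**Figure D2:**
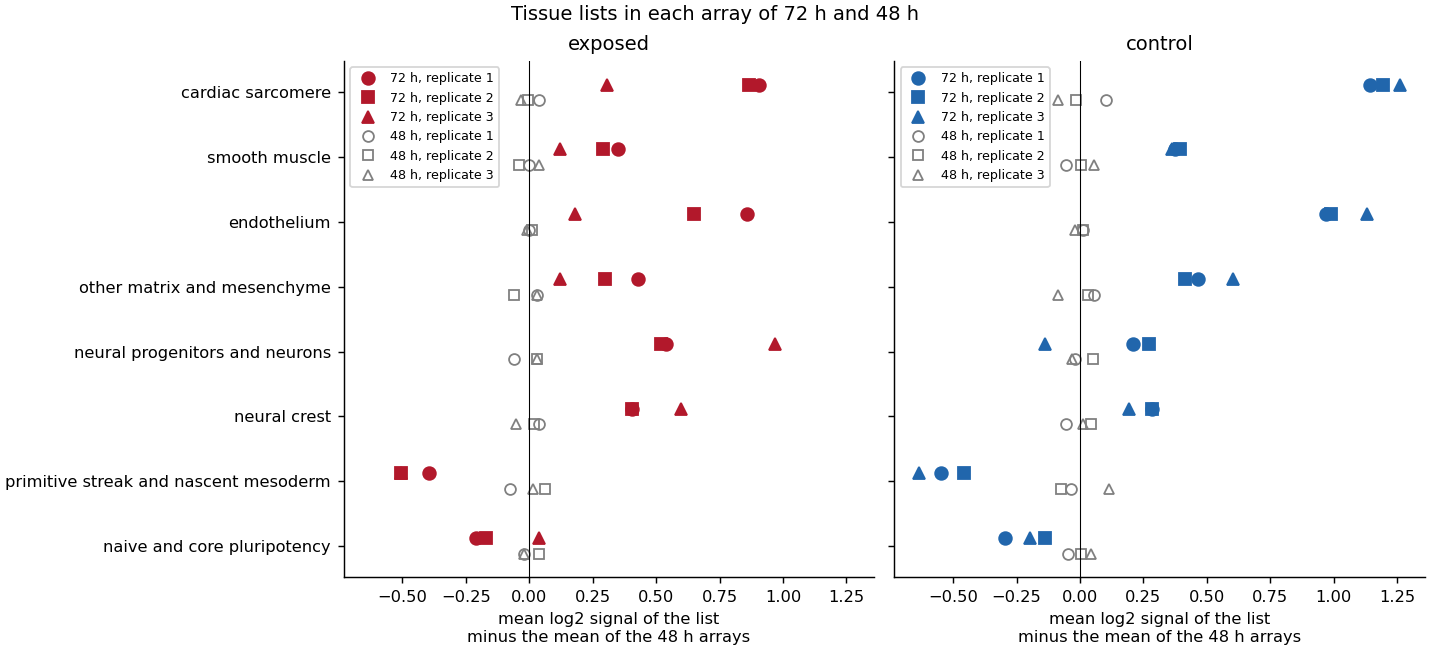
Mean log2 signal of 8 tissue lists in each array, minus the mean of the 48 h arrays of the same treatment, for exposed (left) and control arrays (right). Filled symbols are 72 h arrays and open symbols 48 h arrays, with 1 shape per replicate. The third exposed 72 h array (filled triangle) is lowest for cardiac sarcomere, smooth muscle, endothelium and matrix, and highest for the neural lists.

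Heart muscle genes rose during the last day of exposure. Of 24 measured genes of the contractile apparatus of heart muscle, 11 rose and none fell at an adjusted or unadjusted p under 0.05 (45.8% higher, against 6.42% of all genes), and the median log2 change was 0.49. Control arrays had 17 higher of 24 and a median of 1.04. Without the third exposed array of 72 h, 14 rose and the median was 0.61. Without the first or the second exposed array of 72 h, or the second of 48 h, 7 rose, and 6 with only the exposed arrays in the fit.

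Myl7, the atrial myosin light chain gene, had 8.38, 8.36 and 6.87 at 72 h of exposure, against 5.64, 5.12 and 5.20 at 48 h. Actc1, the cardiac actin gene, had 8.73, 8.28 and 6.95 at 72 h, against 5.82, 5.40 and 5.34 at 48 h. For both genes every 72 h array was above every 48 h array, and the third 72 h array was the lowest of its group. The log2 change was 2.55 ± 0.31 (SE) for Myl7 and 2.46 ± 0.33 for Actc1, which is 5.84-fold and 5.52-fold (limma adjusted p = 0.000113 and 0.00024). Ttn, the giant spring protein of the sarcomere, and Tnnt2, the troponin that anchors the regulatory complex to the thin filament, rose by 1.94 and 1.83. Myh7, the slow myosin heavy chain gene, rose by 1.42, and Myom1, which crosslinks thick filaments, by 1.27. Smaller rises were those of Mybpc3 (0.75), Myl4 (0.69), Tnni1 (0.68), Nebl (0.55) and Myl3 (0.43), and for Tnni1 and Nebl the ranges of the 2 times overlapped.

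The exposed step minus the control step was negative in 22 of 24 sarcomere genes, with a median of -0.42, and of -0.28 without the third exposed array of 72 h. Only for Myh6, the alpha myosin heavy chain gene, did the difference itself pass the test. Myh6 had 6.86, 6.51 and 5.66 in the exposed 72 h arrays, against 5.71, 5.81 and 5.55 in the exposed 48 h arrays, with overlap of the groups through the third 72 h array. In control arrays it had 7.74, 7.64 and 7.60 at 72 h, against 5.13, 4.83 and 5.31 at 48 h, with a wide gap between the times. Its log2 change was 0.65 ± 0.21 (SE) in the exposed step, not called (adjusted p = 0.0632), and 2.57 in the control step (adjusted p = 2.57e-06). The difference of the steps was -1.92 ± 0.30 (SE; limma adjusted p = 0.0301), and -1.58 without the third exposed array of 72 h (adjusted p = 0.00689). It was called in 5 of the 12 fits that each left out 1 array, and missed the threshold without the second control array of 48 h (adjusted p = 0.0646) and without the third of 72 h (adjusted p = 0.0619), among others. Actc1 and Ttn, of the same list, had differences of -1.09 and -1.32 that did not pass (adjusted p = 0.308 and 0.132).

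Regulators and channels of heart muscle had calls in both directions. Of 21 cardiac transcription factors 2 rose and 3 fell (9.52% and 14.3%, against 6.42% and 3.76% of all genes). Neither rise was called without the first or without the second exposed array of 72 h, or with only the exposed arrays in the fit. Myocd, the coactivator that works with the serum response factor in muscle, rose by 0.87 ± 0.20 (SE), and Hey2, a Notch-responsive factor of the ventricle, by 0.45. Hand1, a factor of the first heart field and extraembryonic mesoderm, fell by 0.87, Tbx3 by 0.58 and Tbx2 by 0.42. Nkx2-5, a central cardiac factor named after its values were seen, had a log2 change of 0.01 (adjusted p = 0.97). The 21 genes for calcium handling and ion channels had the same counts, with 1 rise without the first or second exposed array of 72 h or the third of 48 h, and 1 fall without the third of 48 h. Slc8a1, the sodium-calcium exchanger gene, and Cacna1c, the L-type calcium channel gene, rose by 0.83 and 0.65. Trdn, Cacna2d2 and the gap junction gene Gja1 fell by 0.54, 0.43 and 0.24.

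Because several risen sarcomere genes are known targets of the serum response factor, promoters were searched for the CArG box, the motif that this factor binds, over 250 bases before to 50 bases after each RefSeq start. The motif reads alike on both strands. At least 1 exact match was present in 5 of the 11 risen sarcomere genes (45.5%), in 6 of the 21 sarcomere genes with a promoter sequence (28.6%), and in 283 of 16990 measured genes with one (1.67%). Among all genes that rose and had a sequence, 27 of 1129 held a match (2.39%). The 120 bases before the start of 4 of the 5 genes are printed with the CArG box in capitals, 5′ to 3′ on the strand of the gene, because they show where the box lies in each.
Actc1, chr2:114052876-114052995, minus strand: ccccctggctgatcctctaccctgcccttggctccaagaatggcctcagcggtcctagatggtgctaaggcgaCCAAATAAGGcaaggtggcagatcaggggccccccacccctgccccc
Myl3, chr9:110763558-110763677, plus strand: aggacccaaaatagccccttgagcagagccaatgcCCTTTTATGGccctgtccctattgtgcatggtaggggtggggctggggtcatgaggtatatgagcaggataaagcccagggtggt
Myl7, chr11:5898783-5898902, minus strand: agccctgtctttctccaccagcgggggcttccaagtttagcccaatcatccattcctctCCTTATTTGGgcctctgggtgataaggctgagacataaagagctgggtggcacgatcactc
Myom1, chr17:71019437-71019556, plus strand: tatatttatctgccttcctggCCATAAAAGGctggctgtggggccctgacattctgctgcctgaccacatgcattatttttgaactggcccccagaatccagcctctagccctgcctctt
The first base of the box lies 47 bases before the start in Actc1, 61 in Myl7, 85 in Myl3 and 99 in Myom1. In Nebl it lies 162 bases before 1 of 4 annotated starts. No exact match (CC, 6 bases of A or T, GG) was found in the windows of Ttn, Tnnt2 or Acta2. Inexact boxes were not searched for. The Acta2 window holds ccctatatgg and ccttgtttgg, each with 1 base other than A or T inside the box. Sequences and coordinates are RefSeq's for GRCm38.p6, and a match in a window is a description of its letters.

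Smooth muscle and matrix genes rose in part. Acta2, the smooth muscle actin gene, had 10.41, 10.09 and 8.60 at 72 h of exposure, against 7.96, 7.75 and 7.73 at 48 h. The groups did not overlap and the third 72 h array was the lowest of its group. Its log2 change was 1.88 ± 0.30 (SE; limma adjusted p = 0.000892), 2.44 without that array. Mylk, the myosin light chain kinase gene, rose by 0.92. The other 13 of 15 smooth muscle genes were not called, so 13.3% rose, against 6.42% of all genes. The list median was 0.16. Control arrays had 3 of this list higher and none lower, with a median of 0.23. Of 22 collagen genes 4 rose (18.2%, against 6.42% of all genes) and none fell: Col2a1 (0.94), Col3a1 (0.83), Col11a1 (0.67) and Col18a1 (0.44). In control arrays 7 collagen genes rose and none fell. Of 24 other genes of matrix and mesenchyme 8 rose and 1 fell (33.3% and 4.17%), with a median of 0.24, and control arrays had the same counts. The rises numbered 5 without the first or second exposed array of 72 h or the second of 48 h, and 3 with only the exposed arrays in the fit.

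Lum, a keratan sulfate proteoglycan of collagen fibrils, had 6.61, 5.67 and 5.06 at 72 h of exposure, against 4.19, 4.16 and 4.24 at 48 h. The 72 h arrays were all higher and spread over a wide range, with the third lowest. Lum rose by 1.58 ± 0.28 (SE) and Postn, a matrix protein of valve and periosteal mesenchyme, by 1.38 ± 0.37. Thbs1, thrombospondin, rose by 0.85, with the third 72 h array highest (7.56, against 6.67 and 6.78). Nid1, Timp3, Vcan, Sparc and Vim rose by 0.65, 0.59, 0.47, 0.35 and 0.34, and Fbln2 fell by 0.35. Igfbp5, a binding protein for the insulin-like growth factors outside cells, rose by 1.53 ± 0.09 (SE; limma adjusted p = 1.41e-07). Its level was 6.07 ± 0.02 at 24 h, 9.18 ± 0.05 at 48 h and 10.71 ± 0.23 at 72 h of exposure (SD, n = 3). Of these only the 24 h arrays carry the re-analysis tag. Of 14 genes of TGF-beta signalling 7 rose and none fell (50.0%), among them Ccn2 (0.97), Ltbp1 (0.63), Tgfbi (0.53), the receptor genes Tgfbr2 (0.47) and Tgfbr3 (0.31), and the signal transducer Smad3 (0.37). With only the exposed arrays in the fit 3 genes of this list rose. In control arrays 8 of the 14 rose and none fell. The list median was 0.35 in the control step and 0.34 in the exposed step.

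Endothelial genes rose, and 3 fell. Of 22 measured endothelial genes 11 rose (50.0%) and 3 fell (13.6%), with a median log2 change of 0.33. In control arrays 16 rose and 1 fell, with a median of 0.83. Without the third exposed array of 72 h, 13 rose and the median was 0.48, and with only the exposed arrays in the fit 5 rose.

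Cdh5, the cadherin of endothelial junctions, had 8.76, 8.37 and 7.46 at 72 h of exposure, against 6.44, 6.53 and 6.22 at 48 h. Emcn, endomucin, had 6.92, 5.88 and 4.77 at 72 h, against 3.55, 3.80 and 3.56 at 48 h. No array of 72 h lay within the range of 48 h, and the first 72 h array was highest and the third lowest for both genes. Cdh5 rose by 1.80 ± 0.23 (SE; limma adjusted p = 0.000149) and Emcn by 2.22 ± 0.33 (adjusted p = 0.000644). Fli1 and Erg, ETS factors of endothelium, rose by 1.74 and 0.90, and Tek and Tie1, the angiopoietin receptor and its partner, by 1.40 and 0.64. Clec1b, a C-type lectin receptor known from platelets, had the largest rise among named genes after Myl7 and Actc1, 2.40 ± 0.20 (SE). Nr2f2, an orphan nuclear receptor of veins and mesenchyme, rose by 1.74 ± 0.20 (SE), and 2 further genes among the 15 largest rises were Sncaip, a synuclein-binding protein (1.77), and Enpp3, a nucleotide pyrophosphatase of the cell surface (1.75). Sox18, Plvap, Egfl7 and Cd34 rose by 0.99, 0.87, 0.63 and 0.56. Flt1, a receptor for vascular endothelial growth factor, fell by 0.58, and Vwf, von Willebrand factor, by 0.52. The difference of the steps did not pass the test for any of the 22 genes, with a median difference of -0.51. Of 18 genes of primitive blood none rose (1 at an unadjusted p under 0.05) and Gata1 fell by 0.32.

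Among vascular signals, Pgf, placental growth factor, rose by 1.31, Sema3c by 1.11, its receptor gene Plxnd1 by 1.06, Angpt1, the ligand of Tek, by 0.89, Efnb2 by 0.59 and Nrp2 by 0.49. That list of 15 had 6 higher and 2 lower in the exposed step and the same counts in the control step. In RNA of whole embryoid bodies a larger share of a cell type and more RNA per cell cannot be told apart, here or for the lists below.

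**Figure D3:**
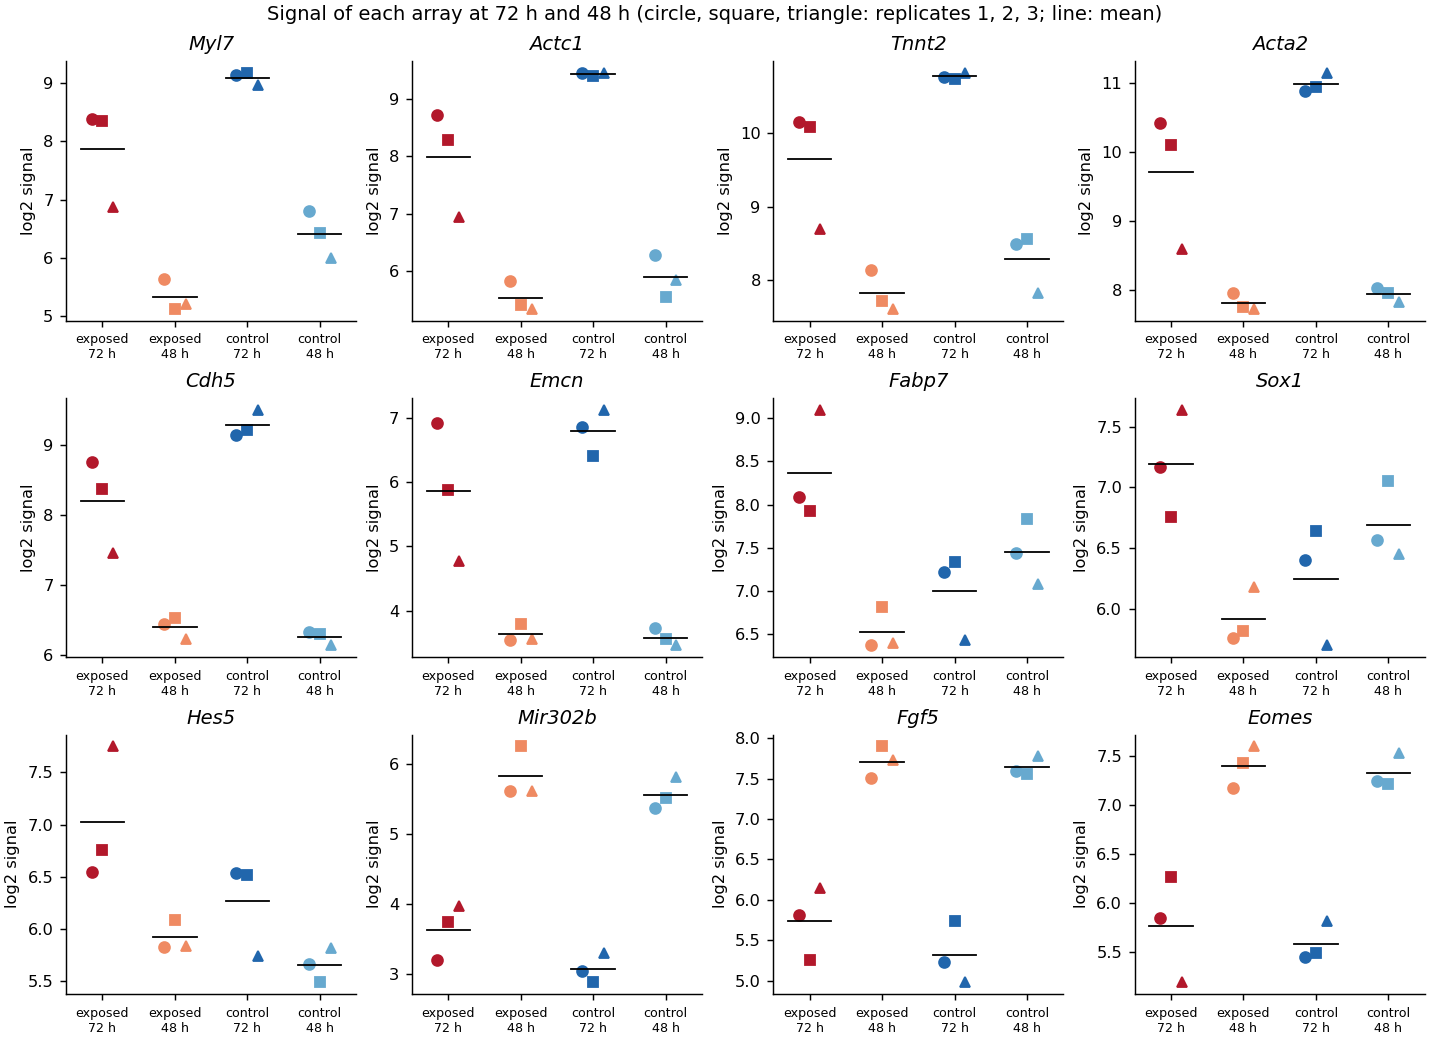
Log2 signal of 12 genes in each array of the exposed and control groups at 72 h and 48 h, with circle, square and triangle for replicates 1, 2 and 3 and a line at the group mean. The heart, smooth muscle and endothelial genes (Myl7 to Emcn) are higher at 72 h in both treatments, with the third exposed array lowest. Fabp7, Sox1 and Hes5 are higher at 72 h in exposed arrays, and Mir302b, Fgf5 and Eomes are lower at 72 h in both.

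Neural genes rose in exposed embryoid bodies. Of 20 measured genes of neural progenitors and neurons 11 rose and none fell at an adjusted or unadjusted p under 0.05 (55.0% higher, against 6.42% of all genes), all 20 had a positive change, and the median was 0.52. In control arrays 1 of 20 rose and the median was 0.13. The median difference of the steps was 0.44, and Fabp7 was the member whose difference passed the test. Without the third exposed array of 72 h, 8 rose, the median was 0.37 and the median difference 0.24. With only the exposed arrays in the fit 7 rose. Leaving out the third control array of 72 h instead gave a control median of 0.24 and a median difference of 0.31.

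Fabp7, the fatty acid binding protein of radial glia, had 8.09, 7.93 and 9.10 at 72 h of exposure, against 6.37, 6.81 and 6.40 at 48 h. In control arrays it had 7.22, 7.34 and 6.43 at 72 h, against 7.44, 7.83 and 7.08 at 48 h. The exposed groups did not overlap, whereas the control groups did, and the third array was the highest exposed and the lowest control array of 72 h. Fabp7 rose by 1.84 ± 0.27 (SE; limma adjusted p = 0.000481), and its control change was -0.45 (adjusted p = 0.403). The difference was 2.29 ± 0.38 (SE; adjusted p = 0.0303), 1.93 without the third exposed array of 72 h (adjusted p = 0.0394) and 2.01 without the third control array of 72 h (adjusted p = 0.0619). Over the 12 fits that each left out 1 exposed or control array of 48 h or 72 h, it ran between 1.93 and 2.52 and was called in 4.

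Sox1, a factor of the neural plate, had 7.17, 6.76 and 7.64 at 72 h of exposure, against 5.76, 5.82 and 6.18 at 48 h. These groups did not overlap. Sox1 rose by 1.27 ± 0.24 (SE; adjusted p = 0.00294), against a control change of -0.44 that was not called, and the difference of 1.71 did not pass (adjusted p = 0.0572). Olig2, a factor of ventral neural progenitors, rose by 1.69 ± 0.21 (SE). Tubb3, a neuronal tubulin, and Hes5, a Notch effector of progenitors, each rose by 1.10, with the third 72 h array highest in both. Nes, Dcx, Pax6, Msi1 and Map2 rose by 0.76, 0.75, 0.65, 0.54 and 0.38, and Nes, Pax6 and Map2 were not called without the third array. Sox2, which is shared by pluripotent and neural cells, rose by 1.07 ± 0.17 (SE), with 9.29, 9.13 and 9.89 at 72 h of exposure, against 8.22, 8.44 and 8.44 at 48 h. Of 15 neural crest genes 4 rose (26.7%, against 6.42% of all genes) and none fell. Ednrb, the endothelin receptor of migrating crest (1.20), and Nr2f1 (1.01) led them. With only the exposed arrays in the fit 2 neural crest genes rose. In control arrays 3 rose and none fell.

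Signals tied to these tissues moved as well. Of 14 Notch genes 6 rose and none fell (42.9%): Hes5, Nrarp (0.86), Lfng (0.64), Hey1 (0.47), Dll4 (0.44) and Jag1 (0.28), and 4 were called without the third array. The rises numbered 1 without the first exposed array of 72 h, 2 without the second of 48 h, and 1 with only the exposed arrays in the fit. In control arrays 2 were higher. Of 15 genes of retinoic acid signalling 6 rose and 1 fell (40.0% and 6.67%, against 6.42% and 3.76% of all genes). Control arrays had 4 of this list higher and 2 lower. Crabp1, a cytoplasmic binder of retinoic acid, had 9.60, 9.33 and 10.35 at 72 h of exposure, against 7.74, 8.0 and 7.77 at 48 h. The gap between the times exceeded the spread within each. Crabp1 rose by 1.92 ± 0.24 (SE; limma adjusted p = 0.000134), Crabp2 by 1.43, the receptor gene Rarb by 0.75, and the degrading enzymes Cyp26a1 and Cyp26b1 by 0.60 and 0.47. Aldh1a2, which makes retinoic acid, fell by 1.18 ± 0.22 (SE), with 5.88, 5.98 and 5.61 at 72 h against 7.31, 6.94 and 6.76 at 48 h.

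**Figure D4:**
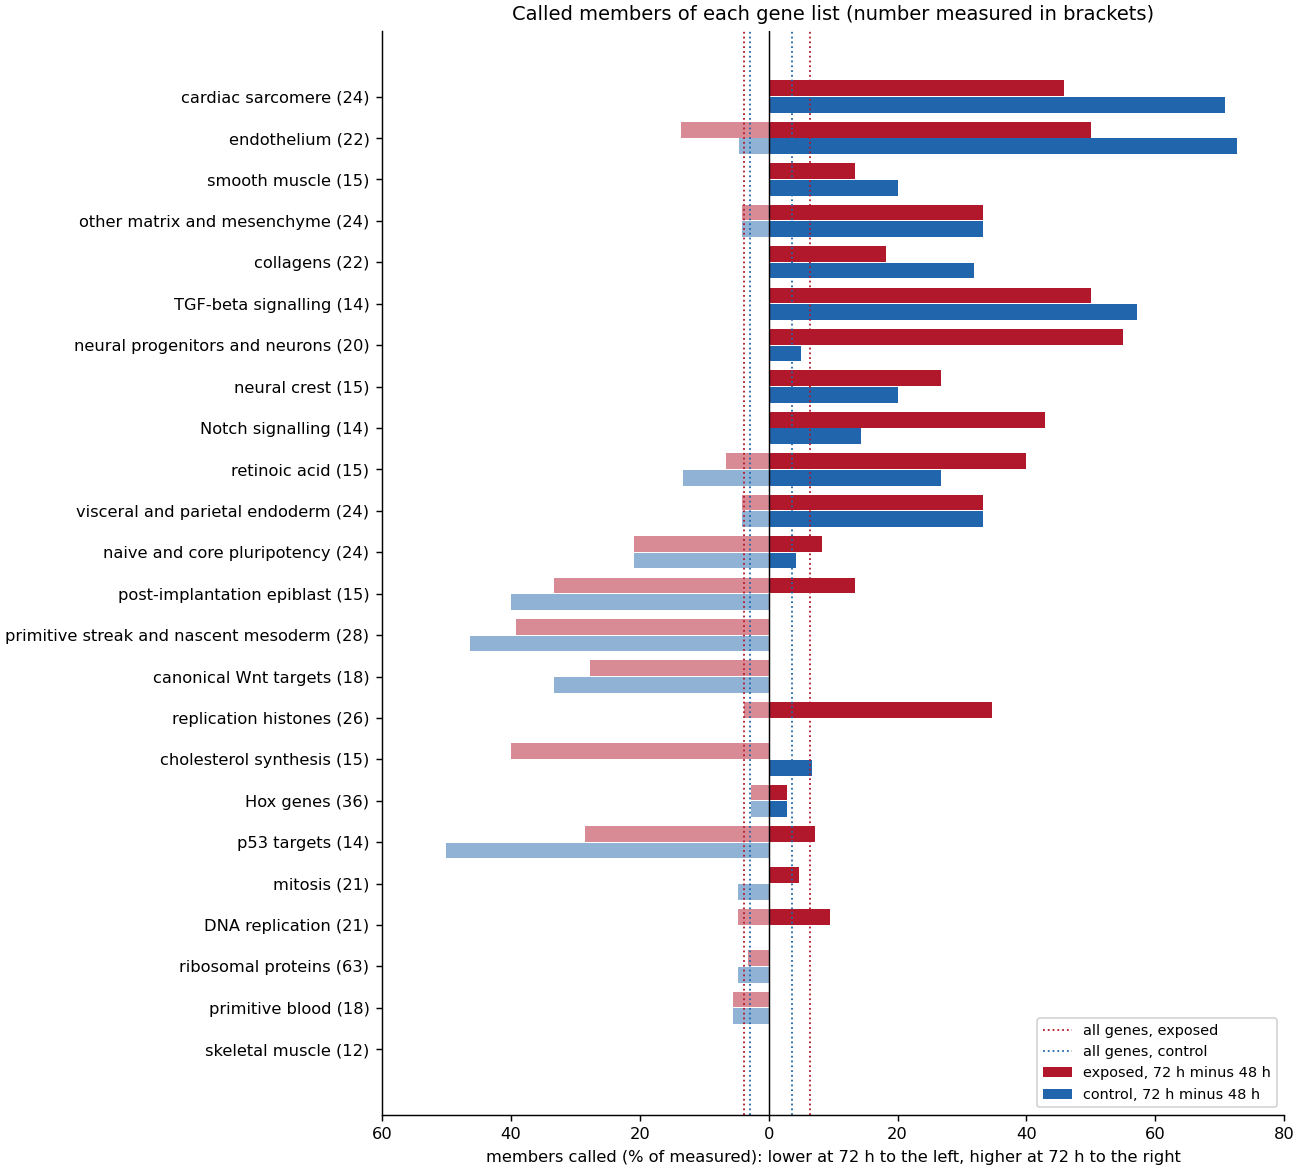
Share of measured members of 24 gene lists that were called higher (right) or lower (left) at 72 h than at 48 h, in percent, for exposed (red) and control arrays (blue). Dotted lines give the shares over all genes. The neural list has 55.0% of its members higher in the exposed step, the streak list 39.3% lower, and the replication histones 34.6% higher with none called in control.

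Genes of the primitive streak fell, and the epiblast list had calls in both directions. Of 28 measured genes of the streak and nascent mesoderm 11 fell and none rose, with 1 higher at an unadjusted p under 0.05 (39.3% lower, against 3.76% of all genes), with a median log2 change of -0.35. Control arrays had 13 lower and a median of -0.42. Without the second exposed array of 48 h 7 fell, and 9 with only the exposed arrays in the fit. Every exposed 72 h array was below every exposed 48 h array in the mean of the list, with 6.11, 6.00 and 6.00 against 6.43, 6.57 and 6.52.

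Eomes, a T-box factor of the streak, had 5.85, 6.26 and 5.19 at 72 h of exposure, against 7.17, 7.43 and 7.60 at 48 h. Mixl1, a homeobox factor of mesendoderm, had 6.06, 5.47 and 5.74 at 72 h, against 6.87, 7.58 and 7.68 at 48 h. The groups did not overlap for either gene. Eomes fell by 1.63 ± 0.19 (SE; limma adjusted p = 7.95e-05) and Mixl1 by 1.62 ± 0.21 (adjusted p = 0.000225). Lhx1, a homeobox factor of the streak and the anterior mesendoderm, fell by 1.72 ± 0.13 (SE; adjusted p = 1.06e-06). Cfc1 and Tdgf1, coreceptors for Nodal, fell by 1.23 and 1.45, and Wnt3, Aplnr, Wnt8a, Nodal and Evx1 by 0.97, 0.87, 0.64, 0.50 and 0.49. None of these genes had a step that differed from control at an adjusted p under 0.05.

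Fgf5, a marker of the post-implantation epiblast, had 5.81, 5.25 and 6.15 at 72 h of exposure, against 7.51, 7.90 and 7.73 at 48 h, with a gap of more than 1 log2 unit between the groups. It fell by 1.97 ± 0.19 (SE; adjusted p = 1.36e-05), and its control change was -2.32. Dnmt3b, a de novo DNA methyltransferase, fell by 1.10 and Lef1 by 1.08. Of 15 epiblast genes 5 fell (33.3%), and Sfrp2 (1.16) and Otx2 (0.41) rose (13.3%), with a median of -0.01. In control arrays 6 of the 15 fell and none rose. The falls of the exposed step numbered 3 without the first or second exposed array of 72 h or the second of 48 h. With only the exposed arrays in the fit 3 epiblast genes and 2 of the pluripotency genes fell. Of 24 pluripotency genes 5 fell and 2 rose (20.8% and 8.33%), and control arrays had 5 lower and 1 higher. Nanog had 4.98, 4.80 and 6.13 at 72 h of exposure, against 6.41, 6.71 and 6.43 at 48 h, with the third 72 h array close to the 48 h range. It fell by 1.22 ± 0.25 (SE), or 1.63 without that array. Pou5f1 fell by 0.41 and Sall4 by 0.32, while Sox2 and Fbxo15 (0.92) rose. The fall of Sall4 was not called with its probe sets averaged. The Wnt targets Axin2, Lgr5, Nkd1 and Notum fell by 0.54, 0.50, 0.49 and 0.36. With Lef1 these are 5 of 18 Wnt targets (27.8%, against 3.76% of all genes), and none rose. In control arrays 6 of the 18 fell and none rose. The falls of the exposed step numbered 3 without the second exposed array of 48 h or of 72 h, and 3 with only the exposed arrays in the fit. Rspo3, a secreted amplifier of Wnt signals, fell by 1.40 ± 0.13 (SE).

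Other germ layer lists moved in both directions. Over all genes 6.42% rose and 3.76% fell. Of 24 visceral and parietal endoderm genes 8 rose and 1 fell (33.3% and 4.17%), and control arrays had the same counts. The rises numbered 3 without the second or the third exposed array of 48 h, 4 without the second of 72 h, and 2 with only the exposed arrays in the fit. Afp, alpha-fetoprotein, rose by 1.43 and Rbp4, the retinol carrier, by 1.13, and Cubn, the endocytic receptor cubilin, fell by 0.75. Of 18 genes of definitive endoderm and gut 4 fell (22.2%) and none rose: Cer1 (-0.86), Trh (-0.66), Sox17 (-0.49) and Krt8 (-0.34). Control arrays had 4 of this list lower and 1 higher. In trophoblast 5 of 11 genes fell (45.5%), with Phlda2 at -0.99 and Cdx2 at -0.68, and control arrays had 4 lower. Paraxial mesoderm was mixed: Pax9, Meox1 and Foxc1 rose by 1.13, 0.89 and 0.72, and Msgn1 fell by 0.74. Of 17 genes of that list 4 rose and 3 fell (23.5% and 17.6%), and control arrays had 2 higher and 5 lower. The rises of the exposed step numbered 2 without the first exposed array of 72 h or the second of 48 h. Of 36 Hox genes Hoxb1 fell by 1.28 and Hoxc5 rose by 0.41, and 34 were not called. These calls are 2.78% each way, below the shares over all genes. Of 21 limb patterning genes Msx2, Sall4 and Fgf10 fell (14.3%) and none rose, and control arrays had 3 lower and 3 higher. With probe sets averaged, or with only the exposed arrays in the fit, 1 limb patterning gene fell. None of 12 skeletal muscle genes was called (3 lower at an unadjusted p under 0.05), and the smallest p was that of Tnnt3 (log2 change -0.32, adjusted p = 0.0892).

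Growth factor lists had calls in both directions. Over all genes 6.42% rose and 3.76% fell. Of 11 genes listed for insulin-like growth factors and binders 4 rose (36.4%) and none fell: Igfbp5, the growth factor gene Igf1 (0.58), Igfbp3 (0.47) and Igf2bp3 (0.28). Igf2bp3 encodes a protein that binds RNA and not the growth factors. In control arrays 6 rose and 1 fell. Without the third exposed array of 72 h 7 rose, and with only the exposed arrays in the fit 1. Of 18 genes of FGF signals and ERK feedback 2 rose and 5 fell (11.1% and 27.8%). The feedback inhibitor Spry1 had 0.36 and its relative Spry4 -0.41. The falls numbered 0 without the third exposed array of 48 h, 1 without the first of 48 h or the third of 72 h, 2 without the second of 48 h or the first of 72 h, 3 without the second of 72 h, and 1 with only the exposed arrays in the fit. Of 19 BMP genes 2 rose and 2 fell (10.5% each way). Id2 and Id3, which encode inhibitors of basic helix-loop-helix factors, rose by 0.54 and 0.48. Msx2, a homeobox target, and the ligand gene Bmp5 fell by 0.73 and 0.56. Of 14 genes of intermediate and lateral mesoderm Lhx1 and Hand1 fell (14.3%) and none rose. Of 11 germ cell genes Ifitm1 fell by 0.51. In the list of macrophages and other white cells Mrc1, the mannose receptor gene, rose by 0.41 and the other 10 of 11 genes were not called. The list's mean signal in the exposed arrays lay between 4.96 and 5.02 at 72 h and between 4.97 and 5.09 at 48 h.

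The 21 genes whose exposed step differed from the control step by the direct test lay outside these tissue lists, apart from Myh6 and Fabp7. Sdhc, which had the smallest adjusted p, encodes a membrane subunit of succinate dehydrogenase, complex II of the respiratory chain. Sdhc had 8.74, 8.55 and 8.41 at 72 h of exposure, against 7.49, 7.33 and 7.27 at 48 h. In control arrays it had 8.58, 8.75 and 8.67 at 72 h, against 8.69, 8.71 and 8.78 at 48 h. The exposed 72 h arrays thus lay around the control level, and the exposed 48 h arrays more than 1 log2 unit below it. At 24 h of exposure, in arrays that carry the re-analysis tag, the signals were 7.48, 7.59 and 7.44. Sdhc rose by 1.20 ± 0.08 (SE; limma adjusted p = 4.86e-07), with a control change of -0.06 (adjusted p = 0.772). The difference was 1.26 ± 0.12 (SE; adjusted p = 0.000166) and was called in 20 of 20 alternative settings. Of the other 7 genes of the complex and its assembly, Sdhaf1, an assembly factor, rose by 0.44, Sdha, the flavoprotein subunit, fell by 0.21, and 5 were not called. The fall of Sdha was not called with only the exposed arrays in the fit. Nor was it called when any of these arrays but the third of 72 h was left out. With probe sets averaged, 1 of the 8 genes of the list rose.

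H2bc12, a histone H2B gene, had 10.27, 10.20 and 10.23 at 72 h of exposure, against 8.96, 8.84 and 8.96 at 48 h. Its control signals were 10.22, 10.14 and 9.80 at 72 h, against 10.08, 10.06 and 10.14 at 48 h. As for Sdhc, the exposed 48 h arrays were low and the exposed 72 h arrays were at the control level. H2bc12 rose by 1.31 ± 0.10 (SE; adjusted p = 1.63e-06), and the difference from control was 1.35 ± 0.15 (SE; adjusted p = 0.000716), called in 20 of 20 alternative settings. Of 26 replication histone genes 9 rose and 1 fell in the exposed step (34.6% and 3.85%), with a median of 0.24, and none was called in the control step, where 5 were lower and none higher at an unadjusted p under 0.05 and the median was -0.13. The rises numbered 5 without the third exposed array of 48 h or the second of 72 h, 6 without the third of 72 h, and 6 with only the exposed arrays in the fit. H4c17 rose by 1.29, H2bc9 by 0.99, H4c8 by 0.72 and H1f5 by 0.64, and H2ac1 fell by 0.46. Histone genes are close copies of one another, so a probe set may read several. Histone messages of this kind lack a poly(A) tail and are tied to DNA synthesis. Of 21 genes of DNA replication 2 rose and 1 fell (9.52% and 4.76%), and of 21 mitotic genes 1 rose (4.76%). Over all genes 6.42% rose and 3.76% fell.

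Bod1, a regulator of chromosome alignment, had 9.47, 9.25 and 9.27 at 72 h of exposure, against 8.34, 8.07 and 7.99 at 48 h. In control arrays its means were 9.31 ± 0.09 at 72 h and 9.03 ± 0.11 at 48 h (SD, n = 3). It rose by 1.20 ± 0.09 (SE) and the difference was 0.92 ± 0.13 (SE; adjusted p = 0.0175). Its 2 probe sets averaged to a change of 0.84, so the brighter one, shown here, gave the larger value. Eef1e1, a component of the aminoacyl-tRNA synthetase complex, rose by 0.60, with a difference of 0.81.

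Dexi and Got1 took the opposite course. Dexi had 7.93, 7.80 and 7.71 at 72 h of exposure, against 8.69, 8.42 and 8.46 at 48 h, and control means of 7.81 at 72 h and 7.67 at 48 h. Got1, the cytosolic aspartate aminotransferase, had 8.80, 8.75 and 8.85 at 72 h of exposure, against 9.35, 9.42 and 9.52 at 48 h, and control means of 8.81 at 72 h and 8.84 at 48 h. Both were high at 48 h of exposure and close to the control mean at 72 h. Dexi fell by 0.71 ± 0.09 (SE), with a difference of -0.85, and Got1 by 0.63 ± 0.07, with a difference of -0.59 (adjusted p = 0.0175 and 0.0301). Stx6, a syntaxin of endosomes and the Golgi, fell by 0.45, with a difference of -0.55. Tnfrsf10b, a death receptor and p53 target, had a difference of 0.78, with an exposed change of 0.06 that was not called (adjusted p = 0.728) and a control change of -0.72.

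**Figure D5:**
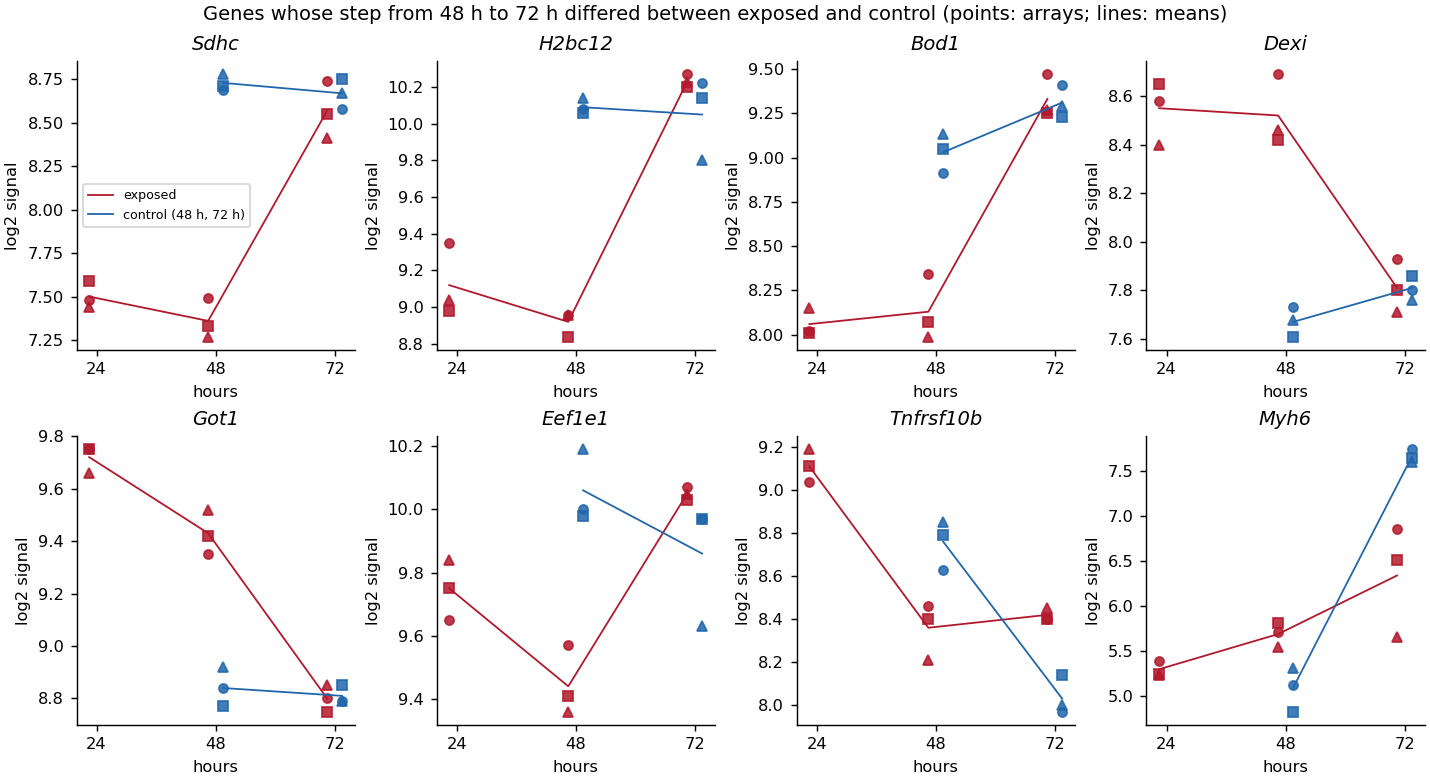
Log2 signal of 8 genes whose step from 48 h to 72 h differed between treatments, against hours, with arrays as points and group means as lines, for exposed arrays at 24, 48 and 72 h (red) and control arrays at 48 and 72 h (blue). For Sdhc, H2bc12, Bod1 and Eef1e1 the exposed arrays of 24 h and 48 h lie low and those of 72 h lie near the controls. Dexi and Got1 lie high at 24 h and 48 h, and Myh6 rises less in exposed than in control arrays. No control of 24 h is shown, so low and high are against the controls of 48 h and 72 h. The exposed 24 h arrays carry the re-analysis tag.

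Crbn and most genes of its ligase were not called. Crbn, the cereblon gene, had 8.23, 8.02 and 8.18 at 72 h of exposure, against 8.17, 7.93 and 8.10 at 48 h. The groups overlapped and the log2 change was 0.08 ± 0.09 (SE; adjusted p = 0.661). Sall4 had 9.58, 9.49 and 9.62 at 72 h, against 9.86, 9.91 and 9.87 at 48 h, a small fall without overlap, of 0.32 ± 0.07 (SE; adjusted p = 0.00717), and its control change was -0.46. Of 16 genes of the ligase and its known substrates for drugs of this class, 2 rose, 1 fell and 13 were not called. Control arrays had the same counts. The exposed shares were 12.5% and 6.25%, against 6.42% and 3.76% of all genes. Ikzf2 (0.66) and Zbtb16 (0.50), both zinc finger factors, rose, and Sall4 fell. With the probe sets of each gene averaged, or with only the exposed arrays in the fit, the fall of Sall4 was not called.

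Among the lists of stress, metabolism and growth, cholesterol synthesis and p53 targets had the larger shares of falls in the exposed step. The list of cell cycle inhibitors and exit had the larger share of rises. Of 14 p53 targets Cdkn1a, the p21 inhibitor of cell division, rose by 0.42, and 4 fell (28.6%, against 3.76% of all genes), with Pmaip1 at -0.51. Only 1 fall of the exposed step was called without the first or second exposed array of 72 h, or without the second or the third of 48 h. The same held with only the exposed arrays, or only the 4 groups of 48 h and 72 h, in the fit. In control arrays 7 of the 14 fell, with a median of -0.25, against -0.07 in the exposed step. Of 16 genes of the unfolded protein and integrated stress response Xbp1 rose by 0.41 and 2 fell, among them Asns, asparagine synthetase, at -0.48. In the antioxidant list of 14 genes Cat rose by 0.25, and Gclc and Fth1 fell by 0.23 and 0.22 (7.14% and 14.3%). Control arrays had 4 of this list lower and none higher. No call of the exposed step was left with only the exposed arrays in the fit. None was left either without the second or the third exposed array of 48 h, or the second of 72 h. Cholesterol synthesis had 6 of 15 genes lower and none higher (40.0%), against 1 higher and none lower in control, where 8 were lower at an unadjusted p under 0.05. Sqle fell by 0.45, Mvd by 0.38, Sc5d by 0.35, Fdps by 0.31, Msmo1 by 0.26 and Nsdhl by 0.24. The falls numbered 3 without the first exposed array of 48 h or the second of 72 h, and 2 with only the exposed arrays in the fit. The list's median change was -0.14 in both steps, and the difference passed for no member. Of 16 genes of glycolysis and hypoxia 3 fell, Ldha and the glucose transporter gene Slc2a3 by 0.39 each and Ndrg1 by 0.36, and 1 gene of the list fell without the first or second exposed array of 72 h or the third of 48 h. Among 11 genes listed for cell cycle inhibition and exit 4 rose (36.4%): Cdkn1c, an imprinted inhibitor, by 0.94, Ccnd2 by 0.76, Cdkn1a, and Btg1 by 0.31. Ccnd2 encodes a cyclin, which promotes division and not exit. Control arrays had 2 genes of the list higher. Further, 2 of 63 ribosomal protein genes and 5 of 73 small nucleolar RNAs fell (3.17% and 6.85%). None rose, with 1 and 4 higher at an unadjusted p under 0.05. These counts do not measure RNA quality or loading. In the exposed step of the other lists that had no call in 1 direction, limma's unadjusted p under 0.05 gave at most 4 genes in that direction.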

How the data were processed

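RNA of whole embryoid bodies, carried as biotin-labelled product, was read on 18 mouse arrays, 3 in each of 6 groups. The deposited values are log2 signals of 41345 probe sets, which the submitters' processing notes credit to RMA (Affymetrix Expression Console 1.3). Its quantile step gives all arrays much the same distribution, and a change is therefore one against the rest of the genes. Array medians ran between 5.367 and 5.462. No detection calls were used, and the number of arrays limits the precision. Arrays of 1 exposed group correlated at 0.994 to 0.995 over genes.

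Gene names came from the platform annotation, whose genome build is not stated there. It held 25335 probe sets, 23521 with 1 symbol and 1814 with several, which were left out, as were the 16010 probe sets it does not list. Of those with 1 symbol, 23328 matched RefSeq GRCm38.p6, and none changed its symbol. Each of 22180 genes was read from its brightest probe set, chosen among several for 1082 genes.

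A limma 3.58.1 fit (R 4.3.3) took 1 mean per group over all 18 arrays (12 residual and 4.35 prior degrees of freedom), with empirical Bayes moderation. Contrasts were exposed 72 h minus 48 h, control 72 h minus 48 h, and the exposed step minus the control step. Tests are two-sided and Benjamini-Hochberg adjusted over all genes, with calls at an adjusted p under 0.05. "Rose" and "fell" are used of called genes. The fit was tested on simulated data. Alternatives changed the scaling, the filter on dim genes, the probe-set summary, the features tested, eBayes options, array weights, the arrays in the fit, a replicate block and single arrays.

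The gene lists and the genes described were chosen with earlier results of these data known. The rule named the 15 largest rises and 15 largest falls among called genes with no overlap of the exposed groups and no predicted locus name, up to 5 called genes per list or the smallest p, the 10 smallest adjusted p of the difference, and Crbn, Sall4 and Sdhc. Further called members of lists were added after their values were seen. The CArG box was searched as an exact match to its consensus.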

Additional observations from a re-analysis of the deposited data

Results flagged for a closer look

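For 10 of the genes described, the exposed step from 48 h to 72 h differed from the control step by limma's test of the difference itself (adjusted p under 0.05). Values are exposed step minus control step on the log2 scale.

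The difference was positive for 6 genes: Fabp7 (2.29), H2bc12 (1.35), Sdhc (1.26), Bod1 (0.92), Eef1e1 (0.81) and Tnfrsf10b (0.78). It was negative for Myh6 (-1.92), Dexi (-0.85), Got1 (-0.59) and Stx6 (-0.55). In Sdhc and H2bc12 the call was made in all 20 alternative settings, in Dexi in 15, Bod1 in 13, Myh6 in 12, Got1 in 11, Tnfrsf10b and Eef1e1 in 10 each, Fabp7 in 9 and Stx6 in 8. In all 12 fits that left out 1 array the sign of the difference was kept for each of the 10 genes, with ranges of 1.17 to 1.34 for Sdhc, 1.23 to 1.44 for H2bc12 and -2.18 to -1.58 for Myh6. Without the third exposed array of 72 h the differences of Eef1e1 (0.81), Tnfrsf10b (0.76) and Stx6 (-0.54) were not called (adjusted p = 0.0559, 0.0559 and 0.0576).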

How the results depend on the processing

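The number of genes changed between 72 h and 48 h of exposure, 2260, came to 828 with only the 6 exposed arrays in the fit, of which 789 are shared, and stayed within 1.5 times in the other settings on all arrays. Leaving out 1 array gave 1275 to 1935 in the exposed step and 805 to 1091 in the control step, whose lowest counts, 805 and 824, were those without the third control array of 48 h and of 72 h. The difference between the steps, 21 genes, was less stable in number. It came to 89 with array weights, 32 with cyclic loess, 350 with trended and robust eBayes, 365 with only genes at or above the median signal, and 2 with only the 4 groups compared in the fit. Leaving out 1 array gave 2 to 31. The share of its calls that were higher was 66.7%, against 46.9% with cyclic loess and 80.0% with the filter. The cause of these shifts was not tested, beyond fewer genes or arrays entering the fit. The deviations of same-numbered arrays of the exposed groups from their group means had correlations of 0.065, -0.021 and -0.009. With 3 arrays a group this cannot show whether the numbers pair arrays, and the main fit did not pair them. With a replicate block 2090 exposed, 1364 control and 5 difference calls were made. Over 171 described genes and their settings, 2227 of 2538 values kept direction and side of the threshold, 304 lost the call, 6 gained it and 1 reversed: Tnfrsf10b, never called in the exposed step, had -0.01 without the third exposed array of 48 h, and leaving out single arrays gave -0.01 to 0.11. List medians moved by more than the spread between arrays in 40 of 616 cases.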

Other observations

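The exposed step differed from the control step in 11 other genes. The values of 4 of them are given here, chosen after they were seen. Mrps21, a protein of the small mitochondrial ribosomal subunit, had log2 signals of 7.79, 7.59 and 7.74 at 72 h of exposure, against 7.01, 7.25 and 7.0 at 48 h, with control means of 7.80 ± 0.05 at 72 h and 7.91 ± 0.10 at 48 h (SD, n = 3). Eif1b, a translation initiation factor, had 9.35, 9.23 and 9.32 at 72 h of exposure, against 8.59, 8.61 and 8.37 at 48 h, with control means of 9.31 at 72 h and 9.13 at 48 h. Myd88, the adaptor of Toll-like receptors, had 6.29, 6.29 and 6.37 at 72 h, against 5.93, 5.79 and 5.66 at 48 h, with control means of 6.22 ± 0.23 at 72 h and 6.50 ± 0.13 at 48 h. In these 3 genes the exposed 48 h arrays lay below both control means. The exposed groups did not overlap for any of these genes. Their differences, exposed step minus control step, were 0.73, 0.60 and 0.81 (limma adjusted p = 0.0303, 0.0400 and 0.0452), called in 7, 7 and 6 of 20 alternative settings. Rnf41, a ubiquitin ligase gene, ran the other way, with 8.93, 8.98 and 8.98 at 72 h of exposure, against 9.35, 9.34 and 9.32 at 48 h, control means of 8.91 at 72 h and 8.82 at 48 h, and a difference of -0.47 (adjusted p = 0.0458).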
